A study of Homo sapiens with 12 samples.

Results

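The CDK inhibitor genes are 8 human genes, CDKN1A, CDKN1B, CDKN1C, CDKN2A, CDKN2B, CDKN2C, CDKN2D and CDKN3, chosen by symbol among the 28813 rows of the deposited table of normalized gene values. They were followed in MKL-1 cells, a widely used line from a Merkel cell carcinoma (a neuroendocrine skin cancer) with integrated Merkel cell polyomavirus DNA. The cells received 3 µM EPZ011989, a small-molecule inhibitor of the histone methyltransferase EZH2, or the vehicle alone, for 6 or 12 days. The vehicle, 1% ethanol, was present in the cultures of all 12 libraries, and medium was renewed every 3 days. Each of the 4 groups (vehicle day 6, EPZ011989 day 6, vehicle day 12 and EPZ011989 day 12) has 3 RNA-seq libraries. All 12 come from this single line, and the sources used here do not say whether the libraries of a group came from separate cultures, and p-values therefore describe only how much these libraries vary, possibly for technical reasons.

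Cyclin-dependent kinases (CDKs) drive the cell cycle when bound to a cyclin. INK4 proteins, encoded by CDKN2A (p16), CDKN2B (p15), CDKN2C (p18) and CDKN2D (p19), bind the CDK4 and CDK6 kinases and keep them from cyclin D. CIP/KIP proteins, encoded by CDKN1A (p21), CDKN1B (p27) and CDKN1C (p57), bind complexes of cyclins with CDKs, above all those of CDK2. CDKN3 is a phosphatase that acts on CDK2 and belongs to neither family. Polycomb complexes, whose EZH2 subunit methylates histone H3 at lysine 27, are well known for silencing CDKN2A and CDKN2B and are also described at CDKN1C.

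The libraries held between 15994997 and 20866370 estimated reads. EZH2 mRNA was 2840 ± 103 normalized counts in vehicle and 2432 ± 67.4 in EPZ011989 at day 6, and 2984 ± 42.4 and 1128 ± 142 at day 12 (SD, n = 3). The 8 Merkel cell markers summed to between 1747 and 2079 CPM, a read count scaled to the library's total, in every library, with ATOH1, SOX2, KRT20, INSM1, ISL1, CHGA, SYP and NEUROD1 each above 0 in every group. At day 6 the sum was between 2016 and 2079 in vehicle and between 1761 and 1830 in EPZ011989, without overlap. At day 12 it was between 1747 and 2015 in vehicle and between 1755 and 1943 in EPZ011989. Single markers went both ways. At an edgeR adjusted p under 0.05, 1 of the 8 rose and 4 fell at day 6, where 17.1% and 17.0% of all genes tested did. At day 12, 2 rose and 4 fell, where 33.7% and 33.2% did. The reads of KRT20 were matched only in part. The 5 leukocyte markers summed to at most 2.73 CPM. The 3 endothelial markers summed to between 0.310 and 1.19 CPM in vehicle and between 0.449 and 2.59 in EPZ011989, and the 5 fibroblast markers to between 9.10 and 17.4 and between 17.6 and 26.3. The part of these low signals in the results was not tested. In RNA from a whole culture, fewer cells of a kind and less RNA per cell cannot be told apart.

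Across the 8 genes, CDKN1C and CDKN1A rose under EPZ011989 and CDKN1B, CDKN2C and CDKN3 fell, each of them at both times. CDKN2D fell at day 6, and CDKN2A and CDKN2B were close to 0 in every library. The reads allowed a test of 6 of the 8 genes, since CDKN2A and CDKN2B did not pass the filter on low counts. At day 6 all 6 tested genes were called at a Benjamini-Hochberg adjusted p under 0.05 in edgeR's quasi-likelihood test, 2 higher and 4 lower, where 34.2% of the 15024 genes tested were called, 17.1% higher and 17.0% lower. At day 12 the calls were 5 of 6, 2 higher and 3 lower, where 66.9% of all genes were called, 33.7% higher and 33.2% lower, so a call at day 12 sets a gene little apart from the rest. The median log2 fold change of the 6 genes was -0.44 at day 6 and -0.47 at day 12, beside -0.02 and 0.02 over all genes tested.

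**Figure D1:**
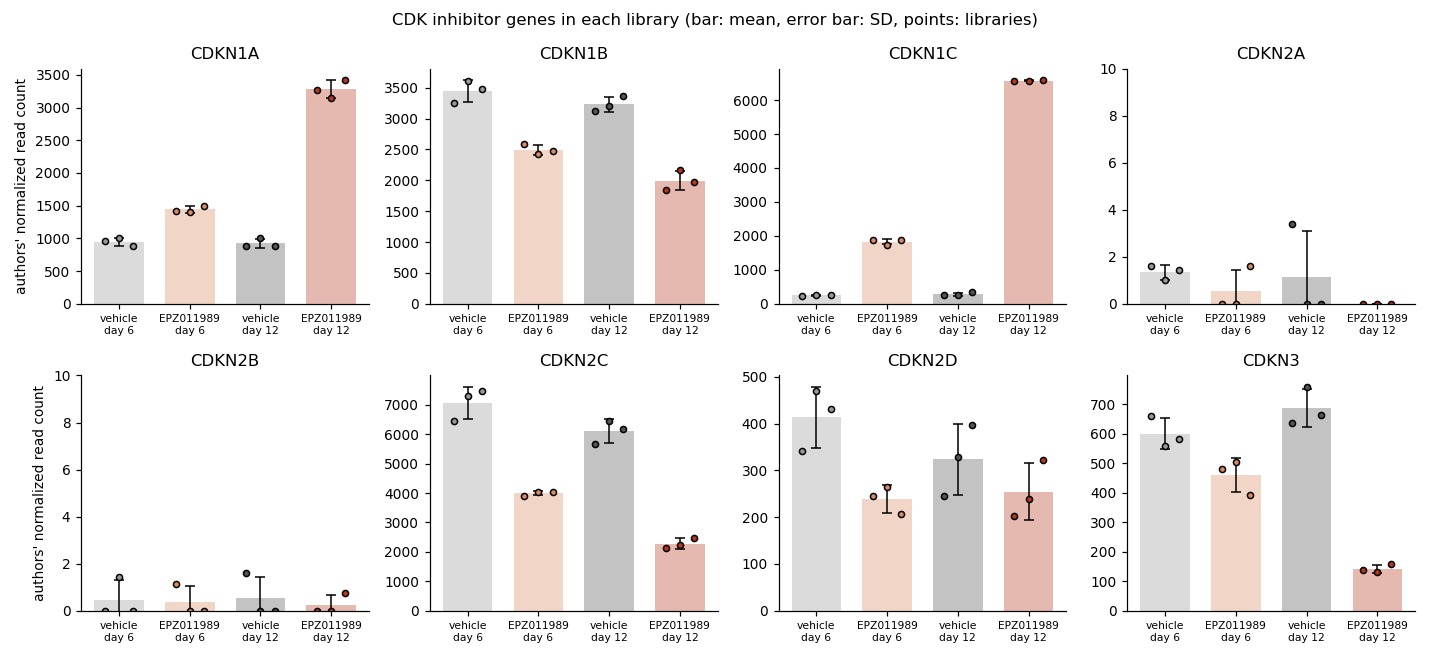
Normalized read counts from the authors' table (y axes, linear, from 0) for the 8 genes in the 4 groups (x axes). Points are libraries, bars are means and error bars are SDs (n = 3). CDKN1C and CDKN1A stand highest in the day 12 EPZ011989 libraries, CDKN2C and CDKN3 lowest there, and CDKN2A and CDKN2B stay under 4 throughout.

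CDKN1C, the p57 gene at chr11:2883213-2885773 on the minus strand (GRCh38), changed most. Its normalized counts were 225, 254 and 256 in the vehicle libraries of day 6 and 1881, 1744 and 1873 in the EPZ011989 libraries of that day. At day 12 the vehicle libraries held 255, 262 and 335 and the treated libraries 6548, 6575 and 6598. No treated library came near a vehicle library, and the day 12 treated libraries all lay above those of day 6. The log2 fold change from summed reads was 2.70 ± 0.11 at day 6 (SE, adjusted p = 3.5e-10, edgeR) and 4.83 ± 0.12 at day 12 (adjusted p = 1.9e-13), which is 6.48-fold and 28.4-fold higher. The day 12 effect exceeded the day 6 effect by 2.13 ± 0.16 on the log2 scale (adjusted p = 1.1e-07). Over alternative analyses the day 12 value ranged from 4.52 to 4.98 and the difference from 1.64 to 2.27, with 0 calls changed. The authors' values were 1.01 to 1.29 times those rebuilt from matched reads, highest in the first vehicle library of day 12. The sizes from summed reads are therefore less certain than their SEs.

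CDKN1A, the p21 gene at chr6:36676460-36687339 on the plus strand, encodes an inhibitor of CDK2 complexes and rose more at day 12 than at day 6. It stood at 955, 1003 and 876 normalized counts in vehicle and 1419, 1410 and 1502 in EPZ011989 at day 6. At day 12 it stood at 888, 999 and 883 in vehicle and at 3267, 3150 and 3425 in EPZ011989. Vehicle libraries of both days shared 1 range, and the treated libraries lay above it without overlap. The increase was 1.49-fold at day 6 (log2 0.57 ± 0.05, adjusted p = 1.3e-06, edgeR) and 3.69-fold at day 12 (log2 1.88 ± 0.05, adjusted p = 6.0e-13). The effects of the days differed by 1.31 ± 0.07 on the log2 scale (adjusted p = 6.3e-09).

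CDKN1B, the p27 gene at chr12:12715058-12722371 on the plus strand, went the other way within the same family. Its normalized counts were 3257, 3608 and 3486 in vehicle and 2583, 2422 and 2476 in EPZ011989 at day 6. At day 12 they were 3117, 3200 and 3368 in vehicle and 1849, 2162 and 1979 in EPZ011989. The treated libraries were below the vehicle libraries on both days. The log2 fold change was -0.47 ± 0.06 at day 6 (adjusted p = 1.8e-05, edgeR) and -0.72 ± 0.06 at day 12 (adjusted p = 5.0e-08). The effects differed between the days by -0.24 ± 0.08 (adjusted p = 0.0238), a call that was lost in 9 of 23 alternative analyses, where the adjusted p reached 0.0970. It was lost without the first vehicle library of day 6 or the first EPZ011989 library of either day (adjusted p from 0.0510 to 0.0528, edgeR).

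CDKN2C, the p18 gene at chr1:50960745-50974633 on the plus strand, was the INK4 gene with the most RNA. Its normalized counts were 6435, 7309 and 7453 in vehicle and 3910, 4031 and 4019 in EPZ011989 at day 6. At day 12 they were 5652, 6464 and 6179 in vehicle and 2119, 2221 and 2483 in EPZ011989. The groups did not overlap on either day, and the day 12 treated libraries were the lowest of the 12. The log2 fold change was -0.87 ± 0.07 at day 6 (adjusted p = 1.9e-07, edgeR) and -1.63 ± 0.07 at day 12 (adjusted p = 4.0e-11). The difference between the days was -0.75 ± 0.10 (adjusted p = 1.6e-05).

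CDKN2D, the p19 gene at chr19:10566462-10569059 on the minus strand, had a wide spread between libraries. Its normalized counts were 342, 469 and 430.2 in vehicle and 245, 265 and 206 in EPZ011989 at day 6, and the 2 groups did not overlap. At day 12 they were 246, 329 and 397 in vehicle and 203, 240 and 321 in EPZ011989, and these groups overlapped. The day 6 log2 fold change was -0.88 ± 0.21 (adjusted p = 0.0056, edgeR). The day 12 value was -0.23 ± 0.22 (adjusted p = 0.371). The difference between the days was 0.65 ± 0.30 (adjusted p = 0.0921), so a change of effect was not shown. Without the third vehicle library of day 12 its adjusted p was 0.0351.

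CDKN3, the CDK2 phosphatase gene at chr14:54396849-54420218 on the plus strand, fell late. Its normalized counts were 659.5, 557 and 583 in vehicle and 481, 503 and 394 in EPZ011989 at day 6. At day 12 they were 636, 759 and 662.5 in vehicle and 137.5, 131.5 and 158 in EPZ011989. The highest treated library of day 6 lay just below the lowest vehicle library, whereas at day 12 the treated libraries lay far below every vehicle library. The log2 fold change was -0.41 ± 0.09 at day 6 (adjusted p = 0.0033, edgeR) and -2.33 ± 0.10 at day 12. The day 6 call was lost with limma on the authors' table without a filter on low values (adjusted p = 0.0531). The effects differed by -1.92 on the log2 scale (adjusted p = 5.4e-08), in a comparison where 47.7% of all genes were called.

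The proliferation markers MKI67 and TOP2A, which mark dividing cells, fell under EPZ011989 at both days, as CDKN3 and CDKN2C did. Their summed level was between 1706 and 1858 CPM in vehicle and between 1455 and 1487 in EPZ011989 at day 6. At day 12 it was between 1917 and 2109 in vehicle and between 412 and 454 in EPZ011989. Between the vehicle days both markers rose, while CDKN2C was called lower, a call lost without any 1 of 4 libraries. CDKN3 was not called there (log2 0.25, adjusted p = 0.0825, edgeR). The part of dividing cells in the fall of CDKN3 and CDKN2C was not tested.

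**Figure D2:**
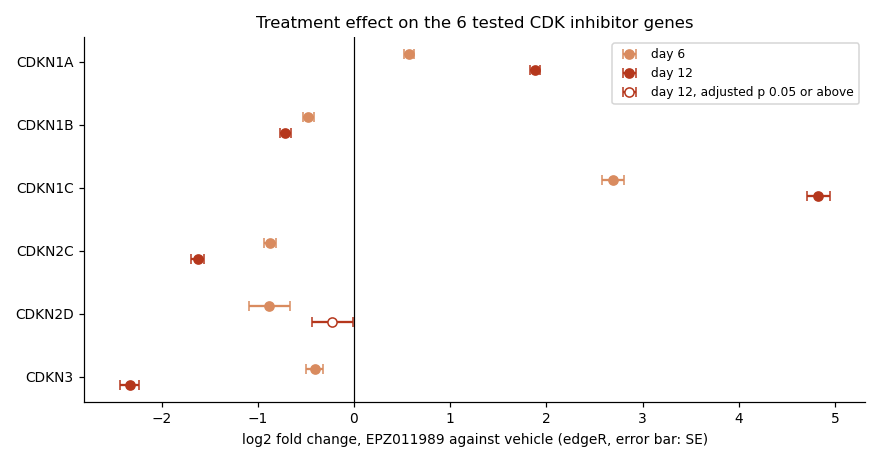
Log2 fold change of EPZ011989 against vehicle (x axis) for the 6 tested genes (y axis) at day 6 and day 12. Points are edgeR estimates, error bars are SEs, and the open point has an adjusted p of 0.05 or above. CDKN1C and CDKN1A lie to the right of 0, the other genes to the left, and CDKN2D is the gene whose day 12 point is open.

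CDKN2A (chr9:21967753-21995301, minus strand) encodes p16 and, from a separate first exon, the unrelated protein p14ARF. CDKN2B (chr9:22002903-22009363, minus strand) encodes p15. CDKN2A had 3, 2 and 1 reads in the vehicle libraries of day 6 and 0, 0 and 1 in the EPZ011989 libraries of that day. At day 12 it had 2, 0 and 0 in vehicle and 0 in all 3 treated libraries. The sum of 9 reads over all 12 libraries is 0.0405 CPM, with an exact 95% Poisson interval of 0.0185 to 0.0769 that covers counting error only. CDKN2B had 5 reads in 4 libraries and at most 2 in any. An increase of either gene under EPZ011989 was not detected, at a depth at which 3 reads in 1 library correspond to between 0.144 and 0.188 CPM.

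The few CDKN2A reads were spread over 4 of its 14 annotated transcripts. The 3 reads of the first vehicle library of day 6 were assigned to CDKN2A-201, whose start at 21975098, inside the gene, is that of p16. The 2 reads of the second were assigned to CDKN2A-214, which starts further upstream at 21994624. No transcript of the gene could be tested, and no share of a transcript could be computed where the gene had 0 reads.

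KLHL9, DMRTA1 and ELAVL2, which lie further from CDKN2A and CDKN2B on chromosome 9p21 than MTAP does, were read well. KLHL9 ends at 21335380 on one side, and DMRTA1 starts at 22446841 and ELAVL2 at 23690104 on the other. MTAP ends at 21937651. KLHL9, which encodes an adaptor of a ubiquitin ligase, had between 1291 and 1729 normalized counts over the 12 libraries. DMRTA1, a DM-domain transcription factor gene, had between 599 and 914. ELAVL2, a neuronal RNA-binding protein gene, had between 2614 and 3686. MTAP, the methionine salvage enzyme next to CDKN2A, was low, as CDKN2A and CDKN2B were, at 26.0 ± 4.80 in vehicle and 11.8 ± 4.44 in EPZ011989 at day 6 (SD, n = 3). At day 12 MTAP ranged from 14.6 to 76.0 in vehicle and from 1.31 to 5.24 in EPZ011989. Of these 4 genes, ELAVL2 (log2 -0.63 ± 0.05), DMRTA1 (-0.56 ± 0.07) and MTAP (-2.85 ± 0.59) fell at day 12, and KLHL9 rose (0.13 ± 0.05, adjusted p = 0.0324, edgeR). Over all genes tested, 33.2% fell and 33.7% rose at day 12.

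**Figure D3:**
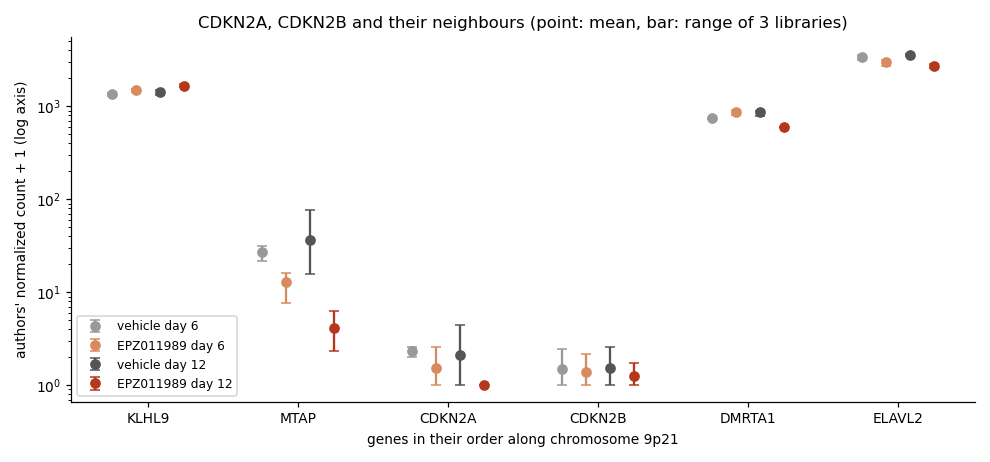
Normalized counts plus 1 (y axis, log scale) of 6 genes in their order along chromosome 9p21 (x axis, evenly spaced). Points are means of 3 libraries and bars their range. MTAP, CDKN2A and CDKN2B sit far below KLHL9, DMRTA1 and ELAVL2 in all 4 groups.

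Levels of different genes were compared as TPM, which counts reads per transcript length. In vehicle at day 6 the order was CDKN2C at 455 ± 34.2, CDKN1B at 147 ± 7.01, CDKN3 at 96.3 ± 8.93, CDKN1A at 50.4 ± 3.30, CDKN2D at 42.9 ± 6.60 and CDKN1C at 15.04 ± 1.44 TPM (SD, n = 3). CDKN1A and CDKN2D overlapped, and the other neighbours in that order did not. CDKN2A stood at 0.234 TPM and CDKN2B at 0.0167. In EPZ011989 at day 12 CDKN1C led with 442 ± 8.02 TPM. It was followed by CDKN1A at 190 ± 7.70, CDKN2C at 159 ± 12.4, CDKN1B at 92.6 ± 7.05, CDKN2D at 28.7 ± 6.69 and CDKN3 at 24.8 ± 2.37, of which the last pair overlapped.

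INK4 genes held most of the family RNA in vehicle and CIP/KIP genes most of it under EPZ011989 at day 12. The 4 INK4 genes summed to 499 ± 40.2 TPM in vehicle and 289 ± 4.66 in EPZ011989 at day 6, and to 430 ± 36.2 and 188 ± 19.2 at day 12 (SD, n = 3). The 3 CIP/KIP genes summed to 213 ± 8.90 and 296 ± 6.38 at day 6, and to 205 ± 11.2 and 725 ± 8.29 at day 12. The INK4 share of the total of both families was 70.0% ± 1.19 and 49.4% ± 0.942 at day 6, and 67.7% ± 0.836 and 20.6% ± 1.54 at day 12. The ranges of vehicle and treated libraries did not overlap on either day. No test was made on these shares, because the families were chosen with earlier results of these data known.

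The total over both families was lower under EPZ011989 at day 6 and higher at day 12. It was 711 ± 47.4 TPM in vehicle and 585 ± 1.81 in EPZ011989 at day 6, and 635 ± 46.9 and 913 ± 25.1 at day 12 (SD, n = 3), without overlap on either day. CDKN1C alone made up 2.11% of the total in vehicle at day 6, 18.5% in EPZ011989 at day 6 and 48.5% in EPZ011989 at day 12, where it was the largest contributor. CDKN2C made up 64.0% in vehicle at day 6 and 17.4% in EPZ011989 at day 12. By genes, 0 of 2 tested INK4 genes rose at either day, and 2 of 3 CIP/KIP genes rose at both, where 17.1% of all genes rose at day 6 and 33.7% at day 12.

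**Figure D4:**
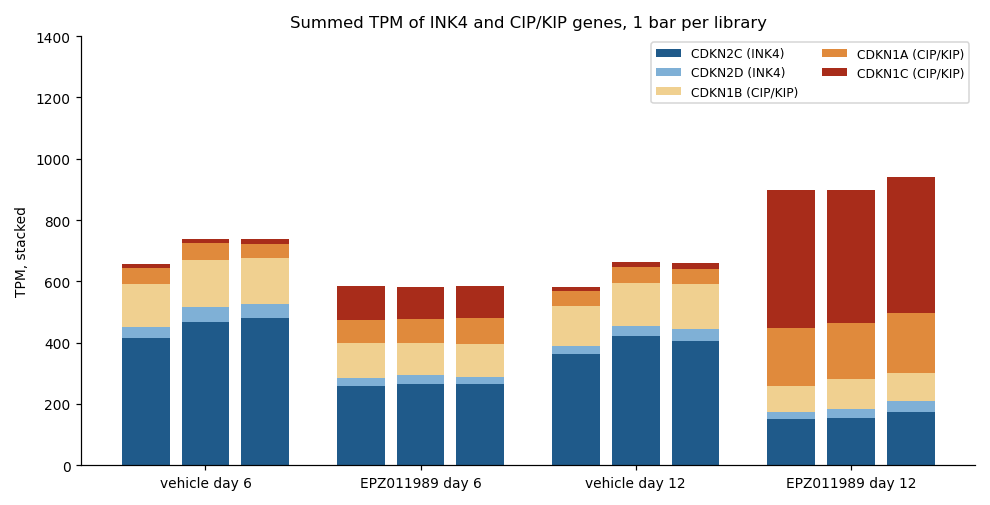
TPM of the INK4 genes CDKN2C and CDKN2D and of the CIP/KIP genes CDKN1B, CDKN1A and CDKN1C, stacked (y axis) in 1 bar for each of the 12 libraries (x axis, by group). CDKN2A and CDKN2B are too low to draw. CDKN2C is the largest block in vehicle and CDKN1C in EPZ011989 at day 12.

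At 12 against 6 days of vehicle, 1 of the 6 tested genes was called, where 13.1% of all genes were, 5.96% higher and 7.15% lower. This was CDKN2C, with a log2 fold change of -0.25 ± 0.07 (adjusted p = 0.0269, edgeR), a call that was lost without the second or the third vehicle library of day 6, or the first or the second of day 12 (adjusted p from 0.0520 to 0.126). CDKN1A, CDKN1B and CDKN1C had values of -0.09, -0.10 and -0.14, CDKN2D of -0.47 ± 0.21 (adjusted p = 0.146) and CDKN3 of 0.25 (adjusted p = 0.0825), none past the threshold.

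The transcripts of CDKN1C were read from the per-transcript files, in which 6 are annotated. CDKN1C-204 held most of the gene's RNA, at 11.9, 14.7 and 14.4 TPM in vehicle and 99.9, 98.1 and 95.7 in EPZ011989 at day 6. At day 12 it stood at 12.5, 12.3 and 14.6 TPM in vehicle and 401, 394 and 402 in EPZ011989. Its log2 fold change was 2.77 ± 0.12 at day 6 (adjusted p = 1.4e-06, edgeR over all 60888 transcripts tested) and 4.98 ± 0.13 at day 12 (adjusted p = 6.9e-09). The spread in tests of transcripts, here and for CDKN2C, leaves out the uncertainty of dividing reads between transcripts. Their SEs and p-values may therefore be too small. At day 6 CDKN1C-204 was the 1 CDKN1C transcript called, where 2.82% of all transcripts were. At day 12 CDKN1C-204, CDKN1C-202 and the retained-intron transcript CDKN1C-205 were called, where 17.6% were. CDKN1C-202 had an adjusted p of 0.0475 that was lost when any of 10 single libraries was left out, all but the first and the third of the vehicle libraries of day 6 (adjusted p from 0.0592 to 0.110).

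The share of CDKN1C-204 in the gene's TPM was 90.8% ± 4.13 in vehicle and 90.7% ± 1.23 in EPZ011989 at day 6, and 82.5% ± 15.2 and 90.2% ± 0.939 at day 12 (SD, n = 3). The mean difference was 3.80 percentage points, with p = 0.355 in a two-sided exact permutation test within days over 400 arrangements and an adjusted p of 0.592 over 5 shares tested. The widest spread was among the vehicle libraries of day 12, from 73.4% to 100%, where the gene had 150 to 242 reads. The 100% was in the first of these, where the authors' CDKN1C value was 1.29 times the value rebuilt from matched transcripts. Shares cover matched transcripts only, so that share may be incomplete. A difference in share was not shown.

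Of the CDKN2C transcripts, which were added after the data had been seen, CDKN2C-203 and CDKN2C-202 fell at both days. CDKN2C-203, which starts at 50968695, stood at 212, 227 and 222 TPM in vehicle and 112, 125 and 124 in EPZ011989 at day 6. At day 12 it stood at 170, 207 and 212 in vehicle and at 42.6, 55.1 and 46.3 in EPZ011989, the lowest values of the 12. CDKN2C-202, which starts at 50969944, stood at 192, 230 and 251 TPM in vehicle and 137, 134 and 134 in EPZ011989 at day 6. At day 12 its values were 186, 207 and 182 in vehicle and 96.2, 94.1 and 120 in EPZ011989.

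The log2 fold change of CDKN2C-203 was -0.89 ± 0.11 at day 6 (adjusted p = 0.0021, edgeR) and -2.07 ± 0.12 at day 12 (adjusted p = 9.1e-07). For CDKN2C-202 it was -0.73 ± 0.11 (adjusted p = 0.0046) and -0.998 ± 0.109 (adjusted p = 1.0e-04). The effect on CDKN2C-203 differed between the days by -1.19 ± 0.16 (adjusted p = 0.0014), and the same value for CDKN2C-202 was -0.26 ± 0.15 (adjusted p = 0.401). Whether these 2 values differ from each other was not tested. The upstream form CDKN2C-201, which starts at 50960745 and holds a small part of the gene's RNA, ranged from 5.99 to 12.1 TPM over the 12 libraries. Its log2 fold changes of -0.43 ± 0.25 and -0.07 ± 0.25 were not called (adjusted p = 0.580 and 0.911, edgeR).

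As a share of the gene's TPM, CDKN2C-203 held 48.5% ± 2.40 in vehicle and 45.7% ± 2.15 in EPZ011989 at day 6, and 49.5% ± 2.92 and 30.3% ± 4.63 at day 12 (SD, n = 3). CDKN2C-202 held 49.2% ± 3.00 and 51.3% ± 1.44 at day 6, and 48.5% ± 3.06 and 64.7% ± 4.28 at day 12. Vehicle and treated ranges overlapped at day 6 and not at day 12. Over both days the exact permutation p was 0.015 and 0.02, each with an adjusted p of 0.05, which is not under the threshold. Their reads were divided between transcripts by Salmon's estimation.

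**Figure D5:**
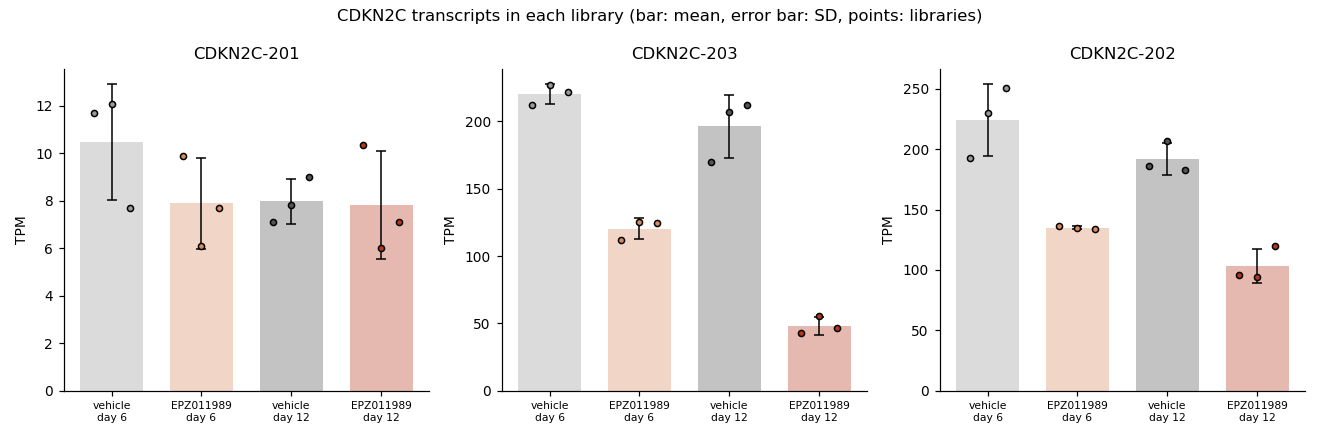
TPM (y axes, linear, from 0, with different scales) of the 3 CDKN2C transcripts in the 4 groups (x axes). Points are libraries, bars means and error bars SDs (n = 3). CDKN2C-203 reaches its lowest values in EPZ011989 at day 12, and CDKN2C-201 stays between 5.99 and 12.1 TPM.

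Sequence upstream of the start sites is shown for the 3 genes with a fall at day 6 that have at least 170 bases of window before any exon of a coding transcript. For CDKN2C it is the window of CDKN2C-201, which was not called lower. CDKN2C-203 and CDKN2C-202, which fell, start further downstream. The CDKN2C windows before 50968706 and 50970245 had 0 such bases. RefSeq promoter windows (GRCh38.p14) matched 7 of the 8 genes. The 250 bases before each start were searched on both strands for the E2F-type motif TTTNNCGC and for the CHR motif TTTGAA of cell cycle genes, which do not overlap each other here. The first is held by 5.92% and the second by 13.3% of 35116 such windows. CDKN2D holds an E2F-type match and CDKN3 a CHR match on the minus strand, both in capitals. A match is a description of the letters and not of a bound site.
CDKN2C, upstream start, chr1:50960495-50960744, plus strand: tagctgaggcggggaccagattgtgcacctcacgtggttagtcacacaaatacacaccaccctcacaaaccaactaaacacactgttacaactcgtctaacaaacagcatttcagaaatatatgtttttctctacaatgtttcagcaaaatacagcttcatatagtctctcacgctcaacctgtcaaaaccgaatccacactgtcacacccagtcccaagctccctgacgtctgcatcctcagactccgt
CDKN2D, chr19:10569060-10569229, minus strand: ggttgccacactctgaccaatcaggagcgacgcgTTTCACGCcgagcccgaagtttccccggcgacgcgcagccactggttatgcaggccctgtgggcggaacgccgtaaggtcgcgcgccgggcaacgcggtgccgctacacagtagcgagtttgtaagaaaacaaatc
CDKN3, chr14:54396757-54396954, plus strand: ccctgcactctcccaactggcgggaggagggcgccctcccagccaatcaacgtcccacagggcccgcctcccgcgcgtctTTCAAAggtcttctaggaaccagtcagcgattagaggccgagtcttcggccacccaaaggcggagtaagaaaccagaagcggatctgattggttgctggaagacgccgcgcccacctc

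The upstream CDKN2C window, that of CDKN2C-201, had a G+C content of 45.6% and 7 CpG dinucleotides. The window before the second RefSeq start at 50968706, near that of CDKN2C-203, had 77.2% and 35. The medians over all windows were 58.0% and 11 CpG dinucleotides. The remaining windows of the 7 genes held neither motif.

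The kinases that INK4 proteins bind did not move together. CDK6 went from 4.21 ± 1.16 to 49.0 ± 0.749 CPM at day 6 and from 6.14 ± 0.391 to 70.6 ± 8.10 at day 12 (SD, n = 3), log2 increases of 3.54 ± 0.14 and 3.52 ± 0.14 (edgeR adjusted p = 1.9e-10 and 1.4e-11). CDK4 fell, by 0.24 on the log2 scale at day 6 and by 0.83 at day 12. Among the D-type cyclins CCND3 fell by 0.44 at day 12 and CCND1 rose by 2.14, from 0.292 ± 0.309 to 1.29 ± 0.370 CPM (SD, n = 3). Of the 5 genes of this list 4 were tested, with 2 higher and 2 lower at day 12, beside 33.7% and 33.2% of all genes.

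Partners of the CIP/KIP proteins fell, and further at day 12 than at day 6 in median. Of 8 other cell cycle cyclins and kinases 7 fell at day 6 and 8 at day 12, where 17.0% and 33.2% of all genes fell. The median log2 fold changes of these 8 genes were -0.37 and -2.11. The G1/S cyclin CCNE2 changed by -2.54 ± 0.07, the mitotic kinase CDK1 by -2.30 ± 0.07, CCNA2 by -2.14 ± 0.06 and CCNB1 by -2.09 ± 0.07 at day 12. Of 8 enzymes that switch CDKs on or off, 5 fell and 1 rose at day 12, beside 33.2% and 33.7% of all genes. The inhibitory kinases WEE1 (-2.43 ± 0.08) and PKMYT1 (-1.92 ± 0.16) fell there along with the activating phosphatases CDC25A (-2.001 ± 0.068) and CDC25C (-1.89 ± 0.16).

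Ubiquitin ligase parts that degrade CIP/KIP proteins went both ways at day 12, with 4 of 12 higher and 6 lower, beside 33.7% and 33.2% of all genes. SKP2, which recognises p27, changed by -1.41 ± 0.06, and its cofactor CKS1B by -2.16 ± 0.07. DTL, the CDT2 receptor for p21, changed by -2.40 ± 0.08. CDC20, an activator of the anaphase-promoting complex, changed by -1.83 ± 0.08. Among the genes that rose, named after their values were seen, RNF123 changed by 1.04 ± 0.07 and SKP1 by 0.98 ± 0.06. The pocket proteins, the substrates of CDK4 and CDK6, all fell at day 12, RB1 by 0.69, RBL1 by 1.63 and RBL2 by 0.24 on the log2 scale.

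Of 22 tested transcriptional regulators of the inhibitor genes, 9 were higher and 8 lower at day 12, shares near the 33.7% and 33.2% of all genes. E2F1 changed by -2.09 ± 0.08, MYCL by 1.64 ± 0.07 and SP1 by -0.80 ± 0.05. Of 11 Polycomb subunits and related enzymes 5 rose and 4 fell, beside 33.7% and 33.2% of all genes. EZH2 changed by -1.54 ± 0.05 and the demethylase KDM2B by -1.07 ± 0.06, while the H3K27 demethylase KDM6B changed by 1.32 ± 0.08 and the Polycomb reader CBX8 by 1.17 ± 0.08. Of 4 tested genes named for CDKN2A or CDK2, CDK2AP1 (-1.15 ± 0.08) and CDKN2AIP (-0.46 ± 0.08) fell, and CDK2AP2 (0.06) and CDKN2AIPNL (-0.05) were not called.

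CDKN1C lies in an imprinted domain of chromosome 11p15.5. Of 13 listed genes there 8 were tested. At day 6 OSBPL5 was the 1 gene called among these 8 (log2 1.80 ± 0.28, adjusted p = 1.7e-04, edgeR), where 34.2% of all genes were. At day 12, 7 rose and 1, NAP1L4, fell, where 33.7% of all genes rose and 33.2% fell. In vehicle at day 12 against day 6, 2 of the 8 were called lower and 0 higher, where 7.15% and 5.96% of all genes were. Their median log2 fold change there was -0.51. The part of this vehicle change in the day 12 values was not tested. OSBPL5, a lipid transfer protein gene, rose by 3.35 ± 0.30, from 22.6 ± 6.68 to 302 ± 64.5 normalized counts (SD, n = 3). In vehicle at day 6 it stood at 74.9 ± 33.8. Vehicle KCNQ1 stood at 623 ± 75.0 at day 6 and 395 ± 67.1 at day 12. The potassium channel gene KCNQ1 changed by 0.85 ± 0.12 and the tetraspanin gene CD81 by 0.40 ± 0.05. NAP1L4, a histone chaperone gene, went from 4086 ± 118 to 2679 ± 48.8 normalized counts. The matched reads of NAP1L4, CARS1 and SLC22A18 held only 0.556, 0.454 and 0.415 of the authors' level, so their fold changes from reads are partial. PHLDA2, named here after its values were seen, had matched reads at 0.803 of the authors' level. In the authors' table it stood at 10.9 ± 2.23 in vehicle and 45.1 ± 6.43 in EPZ011989 at day 6 (SD, n = 3), without overlap, while its log2 fold change from reads was 1.31 ± 0.88 (adjusted p = 0.280, edgeR).

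The genes whose log2 CPM followed each tested member most closely over the 12 libraries were found among 11416 genes, as a description only. The libraries fall into 4 groups, so these correlations mostly reflect group means. CDKN1A was followed by SNPH, TMEM63C and PSAT1 (Pearson r of 0.999 to 0.997), CDKN1C by SEZ6, PAX2 and IQSEC3 (0.998 to 0.997), and CDKN2C by RECQL4, CDC42BPG and COLGALT1 (0.995). For CDKN1B the genes were PRMT2, FSD1 and HS6ST1 (0.994 to 0.989), and for CDKN3 CYB5B, PLP2 and BRCA1 (0.996). CDKN2D had the loosest fits, with STOML1, SPINDOC and MCRIP2 (0.953 to 0.937).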

How the data were processed

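RNA-seq was available for 12 MKL-1 libraries in 4 groups of 3. The authors deposited, per library, Salmon estimated counts, TPM and effective lengths per transcript, and 1 table of the whole series with a normalized gene signal. Salmon 1.2.0, DESeq2, FastQC and hg38 are named per the submitters' processing notes. The sources used here do not state how the table was normalized. DESeq2 size factors with average transcript lengths rebuilt 94.0% of the table's values within 2%, after each gene's ratios were scaled to their own geometric mean. This covered 11070 genes with a mean of at least 100 and compares patterns over the libraries, not levels. CDKN1C in the table was 1.01 to 1.29 times the rebuilt value, the highest in the first vehicle library of day 12.

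Transcripts were matched by identifier to GENCODE v29 (168219 of 179883), and 3.08% to 3.58% of reads were left unmatched. Rounded counts were summed per gene. After edgeR's filterByExpr, 15024 genes and 60888 transcripts were tested with TMM scaling and 1 quasi-likelihood fit of the 4 groups (edgeR 4.0.16, R 4.3.3, limma 3.58.1, DESeq2 1.42.0). SEs were derived from each log2 fold change and its F statistic. Scripts were tested on simulated data. Transcript shares were compared by an exact permutation test within days, for transcripts with a mean share of at least 10%. The members and gene lists were chosen with earlier results of these data known. Named genes were all 8 members, the 3 non-member genes most correlated with each tested member (mean of at least 5 CPM), EZH2 and up to 4 genes of smallest p at day 12 per list. 1 gene that this rule names is not reported here. Counting intervals cover counting error only. Same-numbered libraries did not deviate together (correlations of -0.046 to 0.086).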

Additional observations from a re-analysis of the deposited data

Results flagged for a closer look

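For 5 genes the treatment effect at day 12 differed from that at day 6 in a test of the difference itself (edgeR interaction contrast over all genes). The difference on the log2 scale was 1.31 for CDKN1A (adjusted p = 6.3e-09), 2.13 for CDKN1C (adjusted p = 1.1e-07), -1.92 for CDKN3 (adjusted p = 5.4e-08), -0.75 for CDKN2C (adjusted p = 1.6e-05) and -0.24 for CDKN1B (adjusted p = 0.0238). In each the day 12 effect went further in the direction of day 6. The CDKN1B call was lost in 9 of 23 alternative analyses (adjusted p up to 0.0970). The CDKN1C difference ranged from 1.64 to 2.27 over such analyses. Over all genes 47.7% passed this test.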

How the results depend on the processing

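Over the 6 tested members and 3 treatment comparisons, 11 of 426 alternative values changed their call and 0 reversed. The changes were CDKN1B's difference between days (9), CDKN3 at day 6 (1) and CDKN2D's difference (1). The count of 1 called member in vehicle at 12 against 6 days became 0 with the libraries of the contrast alone, with transcript length offsets, with limma on the authors' table (pseudocount 1, pseudocount 5 or no filter) and at an adjusted p under 0.01, and ranged from 0 to 3 when single libraries were left out. CDKN3 was added without the first vehicle library of day 6, and CDKN3 and CDKN2D without the third of day 12. The count of called CDKN1C and CDKN2A transcripts at day 6 went from 1 to 2 with DESeq2 and ranged from 1 to 2 when single libraries were left out. The transcript added was CDKN1C-205, with DESeq2 or without the third vehicle library of day 6. CDKN1C-206 was added at day 12 without the third vehicle library of that day (adjusted p = 0.0206, edgeR). From the authors' normalized table, which does not divide by length, the INK4 share was 61.7% in vehicle and 42.3% in EPZ011989 at day 6, and 59.1% and 17.6% at day 12. The cause of the other changes was not tested. With replicate number as a block (the replicate block), 6 members were called at day 6 and 5 at day 12. No pairing of samples by number was seen, and the correlations of same-numbered libraries cannot exclude one. Depth limits CDKN2A and CDKN2B, which had too few reads for a test.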
